A study of Mus musculus with 31 samples.

Results

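Carboxylesterases are serine hydrolases that sit mostly in the lumen of the endoplasmic reticulum and cleave ester, amide and thioester bonds. In rodents the family has expanded to a cluster of many genes, and in the hepatocyte its members hydrolyse ester drugs and prodrugs as well as stored triglyceride and other lipid esters. Several of them feed lipid into the assembly of very low density lipoprotein (VLDL), the particle in which the liver exports triglyceride. Here 10 liver carboxylesterases (Ces1c, Ces1d, Ces1e, Ces1f, Ces1g, Ces2a, Ces2c, Ces2e, Ces3a and Ces3b) were taken by symbol, from 18147 genes on the array, a rule that reads no measured value, although the list was drawn up with earlier results of these data known. All 10 lie on mouse chromosome 8. A probe set, the group of short oligonucleotides that measures a transcript, belonged to a single gene for 7 of them. Ces3a and Ces3b shared 1 probe set, reported below as such and kept out of the member counts, and Ces2c was not analysed here.

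The RNA came from female mice of 4 inbred strains (left lobe of the liver), aged 8 to 10 weeks at the start of the study. The treated groups received the candidate antibiotic PF-04287881 at 600 mg/kg by oral gavage daily for 7 days. The vehicle groups received sterile water in the same way, and all livers were taken 24 hours after the last dose. The treated groups held 4 NZW/LacJ, 4 MA/MyJ, 4 SM/J and 3 WSB/EiJ animals, 1 further WSB/EiJ animal having died of a gavage error, and each vehicle group held 4 animals of its strain. The labels name no engineered allele. The series codes MA/MyJ and NZW/LacJ as strains whose treated livers showed vacuoles in Kupffer cells, the macrophages resident in the liver, and NZW/LacJ alone as also showing necrosis of single cells. Each inbred strain stands for 1 genetic background, so the spread between animals is the spread within that background.

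Values are log2 units, so that a difference of 1 is a factor of 2, and a drug effect is PF-04287881 minus vehicle ± its standard error. A gene passed at an adjusted p under 0.05 over 12890 genes, from limma with Benjamini-Hochberg adjustment. All 7 carboxylesterases with their own probe set passed the filter on low values. The library labelled WSB/EiJ PF-04287881 animal 3 did not match its label. On a scale built from 200 probe sets whose level was private to WSB/EiJ, scaled to 0 for the mean of the remaining strains and to 1 for WSB/EiJ itself, this array was at 0.00132, against 0.915 to 1.07 for the other arrays of that strain without vehicle animal 4. For probe sets private to NZW/LacJ its score was 0.993, against 0.666 to 0.713 in treated and 0.970 to 1.03 in vehicle NZW/LacJ arrays. On a scale of the 200 genes with the smallest p for the drug effect in NZW/LacJ, 1 being the treated and 0 the vehicle mean of that strain, it was at 0.0681, against 0.946 to 1.06 in treated and -0.050 to 0.062 in vehicle NZW/LacJ arrays. Those genes were chosen on the NZW/LacJ arrays, and the private probe sets were chosen and scaled on the vehicle arrays of the strains. The ranges of NZW/LacJ are therefore a description on both scales. On both scales the array lay nearest the vehicle NZW/LacJ livers. It is kept under its label, WSB/EiJ treated animal 3, in the fits over all arrays. WSB/EiJ vehicle animal 4 also stood apart, at 0.841 on the WSB/EiJ scale. The drug effects in WSB/EiJ and the average effects of the members are therefore given with and without the first array, and the vehicle differences from WSB/EiJ also without both. The liver label was borne out by 15 tested hepatocyte markers, whose mean level was 13.7 to 13.9 in every group. In whole tissue, fewer cells of a type and less RNA per cell cannot be told apart.

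The family was abundant. Ces1c, whose protein lacks the signal that holds its relatives in the endoplasmic reticulum and is secreted into plasma, had a mean of 14.06 over all arrays, above 99.7% of all genes. Ces1d followed at 12.92, above 98.1% of genes, then Ces2a at 12.49, Ces1g at 12.16, Ces1f at 11.65 and Ces1e at 10.34. Ces2e, at 8.41, was above 61.8% of genes. Probe sets differ in how strongly they bind, so these values place each probe set among all genes and do not rank the members' RNA amounts. The probe set of Ces1f carries the suffix of designs that can match several transcripts, and the values of Ces1f are those of whatever transcripts it binds.

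Proximal promoters, from 250 bases before to 50 after the start of the gene, were present in the RefSeq table of build GRCm38.p6 for 7 of the 10 members. Those shown belong to Ces1e and Ces2a, which fell under the drug, and to Ces1c and Ces1g, which did not pass in any strain. Each is printed 5′ to 3′ on the strand of the gene. The positions are chr8:93229570-93229869 on the minus strand for Ces1e, chr8:104733753-104734052 on the plus strand for Ces2a, chr8:93131234-93131533 on the minus strand for Ces1c and chr8:93337160-93337459 on the minus strand for Ces1g. Capitals mark matches, on either strand, to 7 motifs: the nuclear receptor half-sites AGGTCA and AGTTCA, the TATA box TATAAA, the CCAAT box, the forkhead site TGTTTGC, the HNF1 site and the antioxidant response core TGACNNNGC.
Ces1e: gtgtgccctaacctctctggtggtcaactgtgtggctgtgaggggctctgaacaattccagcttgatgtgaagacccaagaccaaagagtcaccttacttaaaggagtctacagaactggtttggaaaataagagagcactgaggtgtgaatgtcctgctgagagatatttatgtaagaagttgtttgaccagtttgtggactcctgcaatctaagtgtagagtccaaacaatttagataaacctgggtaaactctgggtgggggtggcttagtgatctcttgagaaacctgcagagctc
Ces2a: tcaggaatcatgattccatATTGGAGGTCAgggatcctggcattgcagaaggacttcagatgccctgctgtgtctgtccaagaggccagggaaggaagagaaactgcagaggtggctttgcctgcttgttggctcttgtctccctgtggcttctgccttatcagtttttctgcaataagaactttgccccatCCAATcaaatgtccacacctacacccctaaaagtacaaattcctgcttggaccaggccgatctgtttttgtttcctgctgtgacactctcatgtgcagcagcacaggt
Ces1c: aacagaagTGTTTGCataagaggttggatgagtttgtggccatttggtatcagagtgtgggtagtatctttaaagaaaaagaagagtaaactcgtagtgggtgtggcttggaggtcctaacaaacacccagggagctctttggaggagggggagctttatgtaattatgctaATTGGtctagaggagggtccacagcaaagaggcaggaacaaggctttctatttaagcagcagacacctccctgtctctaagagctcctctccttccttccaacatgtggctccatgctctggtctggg
Ces1g: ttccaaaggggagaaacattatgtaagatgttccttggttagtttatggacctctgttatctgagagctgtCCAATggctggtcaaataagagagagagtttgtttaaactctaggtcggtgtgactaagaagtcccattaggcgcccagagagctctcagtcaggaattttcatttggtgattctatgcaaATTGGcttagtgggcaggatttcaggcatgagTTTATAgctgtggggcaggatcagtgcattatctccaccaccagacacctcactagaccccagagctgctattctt
Ces1e held none of the 7 motifs in this window. Ces2a held an AGGTCA half-site 226 bases before its start, a motif in 16.26% of 32851 promoters of the same length, and a CCAAT box at 58 and at 231 bases. Ces1c held a forkhead site at 242 bases, a motif in 5.065% of promoters, and a CCAAT box at 78 bases. Ces1g held a match to the TATA box at 26 bases, on the strand opposite the gene, and a CCAAT box at 58 and at 179 bases. The TATA motif was in 13.62% of promoters, counted on either strand. The CCAAT matches at 231 bases in Ces2a, 78 in Ces1c and 58 in Ces1g were also on the opposite strand. The CCAAT box was found in 37.41% of promoters. A match is a description of letters. The windows rest on annotated starts, which were not checked, and a motif outside a window is not counted. These matches therefore do not compare the fallen genes with the other pair.

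The first question was what the drug did to the family in each strain. In MA/MyJ livers 4 of the 7 members fell, Ces1f, Ces1e, Ces2a and Ces1d, when 0.978% of all tested genes fell. The same 4 members fell in the average over strains, in which 8.92% of all genes fell. The median effect of the 7 members in MA/MyJ was -0.79, against 0.01 over all genes. In NZW/LacJ, 3 members fell, Ces1e, Ces2a and Ces1d, beside 6.40% of all genes, and the median of the 7 was -0.81, against 0.02 over all genes. In SM/J only Ces2a fell among the 7 members, beside 0.993% of all genes, with a median of -0.20 against -0.003 over all genes. Over all arrays, Ces2e rose in WSB/EiJ, beside 6.91% of all genes, and the median was 0.05 against 0.02. Over the same arrays none of the 7 fell in WSB/EiJ by limma's test, nor at an unadjusted p under 0.05, where 12.4% of all genes fell. Without the array labelled animal 3 of treated WSB/EiJ, the counts of fallen members were 4 in MA/MyJ livers, 4 in NZW/LacJ with Ces1f added, and 2 in SM/J with Ces1e added, beside 2.09%, 8.35% and 1.99% of all genes. In that fit 4 fell in the average, beside 14.2% of all genes. With 2 treated arrays left in WSB/EiJ, Ces1e alone fell there, beside 18.6% of all genes, and Ces2e no longer passed as higher.

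**Figure D1:**
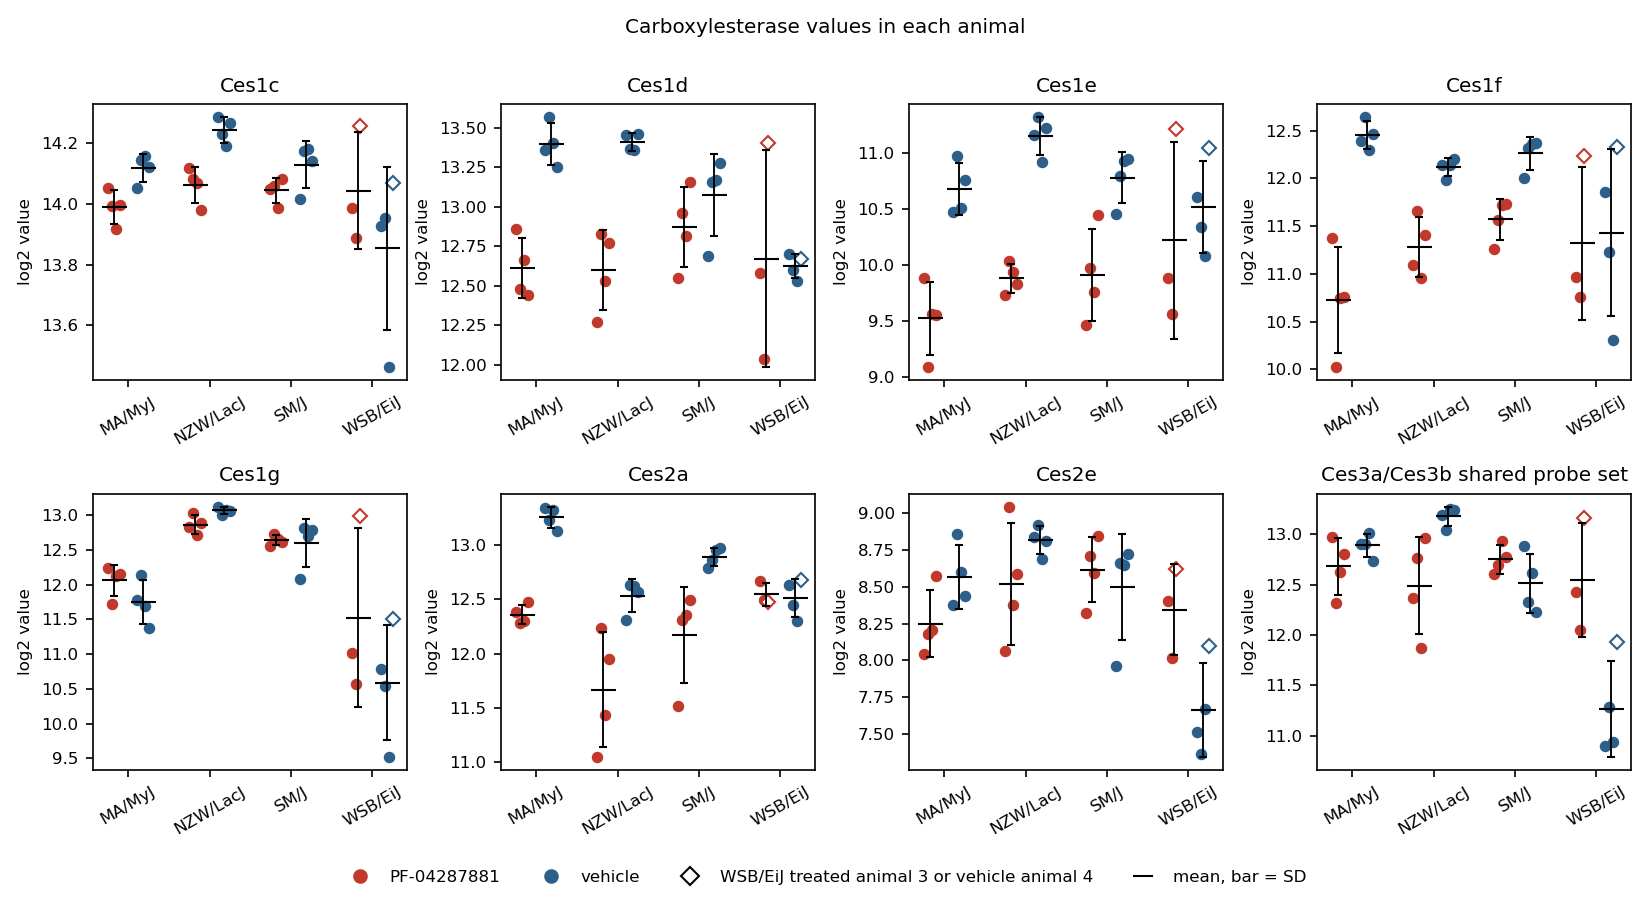
Log2 value (vertical axis) of each animal in 8 panels, 1 for each of the 7 carboxylesterases and 1 for the probe set shared by Ces3a and Ces3b. For each strain the PF-04287881 animals (red) stand left of the vehicle animals (blue), with the mean and SD in black. Open diamonds mark WSB/EiJ PF-04287881 animal 3 and WSB/EiJ vehicle animal 4. The treated animals of MA/MyJ and NZW/LacJ lie below all vehicle animals of their strain for Ces1d, Ces1e, Ces1f and Ces2a.

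Ces1e encodes egasyn, the esterase that anchors β-glucuronidase in the endoplasmic reticulum. In MA/MyJ livers, Ces1e stood at 9.89, 9.09, 9.56 and 9.56 in the treated animals, against 10.47, 10.97, 10.51 and 10.76 in the vehicle animals. In NZW/LacJ livers, Ces1e stood at 9.73, 10.03, 9.94 and 9.83 in the treated animals, against 11.16, 11.31, 10.92 and 11.22 in the vehicle animals. Every treated animal of both strains was below every vehicle animal of its strain. Ces1e fell, at -1.15 ± 0.26 in MA/MyJ (2.22-fold lower, adjusted p = 0.0085) and at -1.27 ± 0.26 in NZW/LacJ (2.41-fold lower, adjusted p = 0.00078). In SM/J livers, Ces1e stood at 9.47, 9.97, 9.76 and 10.45 in the treated animals, against 10.45, 10.79, 10.93 and 10.95 in the vehicle animals. The SM/J groups touched without overlapping, the highest treated animal lying just under the lowest vehicle animal. The difference of -0.87 ± 0.26 in SM/J did not pass over all arrays (adjusted p = 0.071), but passed once the array called WSB/EiJ treated animal 3 was left out (adjusted p = 0.0092), which lowers the spread pooled over groups.

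In WSB/EiJ livers, Ces1e stood at 9.88, 9.56 and 11.21 in the treated animals, the last being animal 3, against 10.61, 10.34, 10.08 and 11.05 in the vehicle animals. The pair of treated animals other than animal 3 lay below all 4 vehicle animals, and animal 3 lay above them. The WSB/EiJ difference was -0.30 ± 0.28 (adjusted p = 0.49) with animal 3 and -0.79 ± 0.24 (adjusted p = 0.012) without it. Without that array 1 of 7 members fell in WSB/EiJ, Ces1e, when 18.6% of all genes fell. Averaged over the strains, Ces1e fell, at -0.90 ± 0.13 (adjusted p = 2.0e-05), or at -1.02 ± 0.10 without animal 3 (adjusted p = 6.6e-08).

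Ces1f encodes a triglyceride hydrolase of the hepatocyte. It had the largest drug effect of the 7 members, in MA/MyJ. In MA/MyJ livers, Ces1f stood at 11.38, 10.02, 10.74 and 10.76 in the treated animals, against 12.39, 12.65, 12.30 and 12.47 in the vehicle animals. It fell, at -1.73 ± 0.31, 3.31-fold lower (adjusted p = 0.0015), and the groups stood clear of each other. In NZW/LacJ livers, Ces1f stood at 11.09, 11.65, 10.96 and 11.41 in the treated animals, against 12.14, 11.99, 12.14 and 12.20 in the vehicle animals. These groups did not overlap either, but the difference of -0.84 ± 0.31 passed only without WSB/EiJ animal 3 (adjusted p = 0.057 with it, 0.026 without). In SM/J livers, Ces1f stood at 11.26, 11.56, 11.72 and 11.73 in the treated animals, against 12.01, 12.32, 12.36 and 12.36 in the vehicle animals. The SM/J difference of -0.69 ± 0.31 did not pass (adjusted p = 0.30, or 0.16 without WSB/EiJ animal 3), although the groups did not overlap.

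In WSB/EiJ livers, Ces1f stood at 10.97, 10.76 and 12.24 in the treated animals, against 11.86, 11.23, 10.31 and 12.32 in the vehicle animals. The groups overlapped, and animal 3 lay with the higher vehicle animals. The difference was -0.11 ± 0.34 (adjusted p = 0.86), or -0.57 ± 0.34 without animal 3 (adjusted p = 0.21). Averaged over the strains, Ces1f fell, at -0.84 ± 0.16 (adjusted p = 0.00042), or at -0.96 ± 0.15 without animal 3.

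Ces1d, also called triacylglycerol hydrolase, releases stored triglyceride for VLDL assembly. In MA/MyJ livers, Ces1d stood at 12.86, 12.48, 12.67 and 12.44 in the treated animals, against 13.36, 13.57, 13.40 and 13.25 in the vehicle animals. In NZW/LacJ livers, Ces1d stood at 12.27, 12.83, 12.53 and 12.77 in the treated animals, against 13.45, 13.37, 13.36 and 13.46 in the vehicle animals. Treated animals of both strains lay below all vehicle animals. Ces1d fell, at -0.79 ± 0.19 in MA/MyJ (1.72-fold lower, adjusted p = 0.014) and at -0.81 ± 0.19 in NZW/LacJ (1.76-fold lower, adjusted p = 0.0024). The MA/MyJ call was lost when vehicle animal 2 or treated animal 4 of that strain was left out, with an adjusted p of up to 0.052 over the 31 leave-one-out fits. In SM/J livers, Ces1d stood at 12.55, 12.96, 12.81 and 13.16 in the treated animals, against 12.69, 13.16, 13.17 and 13.28 in the vehicle animals. These groups overlapped, with a difference of -0.20 ± 0.19 (adjusted p = 0.69).

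Among WSB/EiJ animals, Ces1d stood at 12.58, 12.03 and 13.40 in the treated animals, against 12.70, 12.60, 12.53 and 12.67 in the vehicle animals. Treated animal 3 lay above, and treated animal 2 below, all vehicle animals. The difference was 0.05 ± 0.20 (adjusted p = 0.90) with animal 3 and -0.32 ± 0.17 (adjusted p = 0.17) without it. Averaged over the strains, Ces1d fell, at -0.44 ± 0.09 (adjusted p = 0.0014), or at -0.53 ± 0.07 without animal 3. Ces1d had 2 further probe sets. The brighter of them gave effects of -1.01 in NZW/LacJ, -0.71 in MA/MyJ, 0.17 in WSB/EiJ and 0.07 in SM/J. The other, with a mean level of 5.47, gave -0.69, -0.59, 0.20 and 0.14 in the same order. The 3 probe sets had the same sign in MA/MyJ and NZW/LacJ and differed in sign in SM/J.

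Ces2a, a hydrolase of acylglycerols and of many ester drugs, fell in 3 strains over all arrays, more than any other of the 7. Without WSB/EiJ treated animal 3, Ces1e passed as lower in all 4 strains and Ces2a in the same 3. In MA/MyJ livers, Ces2a stood at 12.38, 12.29, 12.30 and 12.47 in the treated animals, against 13.35, 13.23, 13.33 and 13.13 in the vehicle animals. In NZW/LacJ livers, Ces2a stood at 11.04, 12.24, 11.43 and 11.95 in the treated animals, against 12.32, 12.64, 12.63 and 12.57 in the vehicle animals. The MA/MyJ animals of each group lay close together, while the treated NZW/LacJ animals spread over more than 1 log2 unit. Ces2a fell, at -0.90 ± 0.18 in MA/MyJ (1.87-fold lower, adjusted p = 0.0041) and at -0.87 ± 0.18 in NZW/LacJ (1.83-fold lower, adjusted p = 0.0012). In SM/J livers, Ces2a stood at 11.52, 12.31, 12.36 and 12.49 in the treated animals, against 12.79, 12.86, 12.96 and 12.97 in the vehicle animals. It fell, at -0.73 ± 0.18 there (1.65-fold lower, adjusted p = 0.030). That call was lost without any 1 of 6 SM/J arrays, all 4 vehicle animals and treated animals 1 and 3, with an adjusted p of up to 0.16 and differences between -0.83 and -0.51.

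Among WSB/EiJ animals, Ces2a stood at 12.67, 12.50 and 12.47 in the treated animals, against 12.63, 12.45, 12.30 and 12.68 in the vehicle animals. The groups lay within each other's range. The WSB/EiJ difference was 0.03 ± 0.20 (adjusted p = 0.94; 95% interval -0.38 to 0.44), or 0.07 ± 0.23 without animal 3. This is the one of the 4 falling genes in which animal 3 did not stand apart from the other treated WSB/EiJ animals. Averaged over the strains, Ces2a fell, at -0.62 ± 0.09 (adjusted p = 3.3e-05), or at -0.61 ± 0.10 without animal 3.

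**Figure D2:**
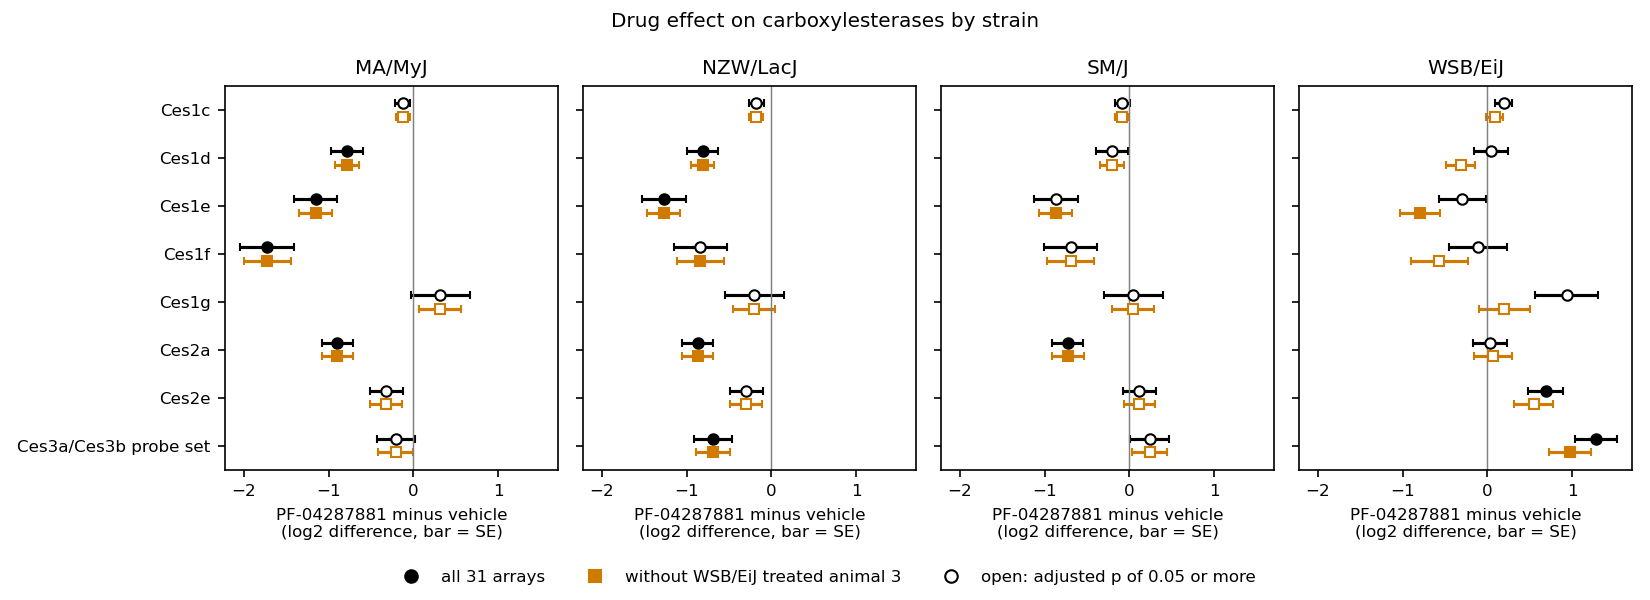
PF-04287881 minus vehicle (horizontal axis, log2 difference with its SE) for 7 carboxylesterases and the probe set shared by Ces3a and Ces3b, in 1 panel per strain. Black circles use all 31 arrays and orange squares leave out WSB/EiJ PF-04287881 animal 3. Filled symbols passed at an adjusted p under 0.05. In MA/MyJ and NZW/LacJ the estimates of Ces1d, Ces1e, Ces1f and Ces2a lie between -1.73 and -0.79, while those of Ces1g and Ces2e lie nearer 0.

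The other 3 members did not pass in the average over strains. Ces1c, the plasma esterase, changed little: its effects were -0.18 ± 0.09 in NZW/LacJ, -0.13 ± 0.09 in MA/MyJ, 0.19 ± 0.10 in WSB/EiJ and -0.08 ± 0.09 in SM/J, and none passed. The NZW/LacJ animals did not overlap for Ces1c, with 13.98 to 14.12 in the treated and 14.19 to 14.29 in the vehicle animals. Counted in this way, 5 of 7 members were lower without overlap in NZW/LacJ, where 11.9% of all genes were. The same held for 4 members in MA/MyJ, where 6.09% of all genes were lower without overlap, and for Ces1e, Ces1f and Ces2a in SM/J, where 7.15% were. In WSB/EiJ it held for 0 members beside 7.80% of all genes, or for Ces1e alone beside 20.0% without animal 3.

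Ces1g encodes a hydrolase whose loss raises VLDL secretion and fat storage in mice. Its effects were 0.31 ± 0.35 in MA/MyJ (adjusted p = 0.70), -0.20 ± 0.35 in NZW/LacJ (adjusted p = 0.74) and 0.04 ± 0.35 in SM/J (adjusted p = 0.97), with overlapping groups in each. In WSB/EiJ livers, Ces1g stood at 11.01, 10.57 and 12.99 in the treated animals, against 10.79, 10.54, 9.52 and 11.51 in the vehicle animals. Animal 3 was higher than any other WSB/EiJ animal and close to the 13.01 to 13.13 of the NZW/LacJ vehicle animals. The WSB/EiJ difference was 0.93 ± 0.38 with it (adjusted p = 0.083) and 0.20 ± 0.30 without it (adjusted p = 0.66).

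Ces2e, a less studied member of the CES2 group, had the smallest values of the 7. It gave -0.32 ± 0.19 in MA/MyJ (adjusted p = 0.40), -0.30 ± 0.19 in NZW/LacJ (adjusted p = 0.29) and 0.12 ± 0.19 in SM/J (adjusted p = 0.85). Among WSB/EiJ animals, Ces2e stood at 8.40, 8.01 and 8.62 in the treated animals, against 7.51, 7.36, 7.67 and 8.10 in the vehicle animals. The lowest treated animal overlapped with vehicle animal 4, the other array that stood apart. The WSB/EiJ rise of 0.68 ± 0.21 (1.61-fold, adjusted p = 0.022) did not pass without animal 3 (0.55 ± 0.23, adjusted p = 0.072), when 13.8% of all genes rose, and passed without both arrays (0.69 ± 0.23, adjusted p = 0.024), when 12.4% did. It was also lost without treated animal 1, vehicle animal 1 or vehicle animal 2 of WSB/EiJ, with an adjusted p of up to 0.083.

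The probe set shared by Ces3a and Ces3b, a pair of hepatic carboxylesterases, cannot assign its signal to either gene. In NZW/LacJ livers it stood at 12.36, 12.77, 11.87 and 12.96 in the treated animals, against 13.19, 13.05, 13.25 and 13.24 in the vehicle animals, a difference of -0.69 ± 0.23 (adjusted p = 0.031). In WSB/EiJ livers it stood at 12.43, 12.05 and 13.16 in the treated animals, against 10.90, 11.29, 10.94 and 11.93 in the vehicle animals. Both treated WSB/EiJ animals other than animal 3 lay above every vehicle animal there, and animal 3, at 13.16, lay within the 13.05 to 13.25 of the NZW/LacJ vehicle animals. The NZW/LacJ groups were apart in the other direction. The WSB/EiJ rise was 1.28 ± 0.25 (2.43-fold, adjusted p = 0.00064), or 0.97 ± 0.25 without animal 3 (1.96-fold, adjusted p = 0.0040). In MA/MyJ and SM/J it gave -0.21 ± 0.23 and 0.24 ± 0.23 and did not pass.

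Whether the strains differed in their response was asked with 1 F test per gene on all interaction terms. It passed for 3 of 7 members, Ces2e (adjusted p = 0.030), Ces2a (adjusted p = 0.038) and Ces1d (adjusted p = 0.041), when 19.4% of all genes passed. Without WSB/EiJ animal 3, Ces1d (adjusted p = 0.033) and Ces2a (adjusted p = 0.040) passed, and Ces2e did not (adjusted p = 0.066), when 32.4% of all genes passed. Without both WSB/EiJ arrays that stood apart, Ces1d, Ces1f, Ces2a and Ces2e passed, beside 33.2% of all genes. The calls lay close to the threshold: leaving out 1 array lost the call of Ces1d for 18 of the 31 arrays, that of Ces2a for 13 and that of Ces2e for 4, with an adjusted p of up to 0.065, 0.11 and 0.072. The shared probe set of Ces3a and Ces3b passed with an adjusted p of 0.00082, or 0.0018 without animal 3.

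Against the coding for Kupffer cell vacuolation, the mean effect of the strains with it was compared with the mean effect of the pair without it. The contrast was below 0 for all 7 members and passed as lower for 3, Ces1d at -0.72 ± 0.19 (adjusted p = 0.0100), Ces2e at -0.71 ± 0.20 (adjusted p = 0.014) and Ces2a at -0.54 ± 0.19 (adjusted p = 0.048), when 4.48% of all genes passed as lower. Without WSB/EiJ animal 3 the same 3 passed, beside 8.25% of all genes, with Ces1d at -0.54 ± 0.15, Ces2e at -0.64 ± 0.20 and Ces2a at -0.55 ± 0.20. The call of Ces2a was lost when 1 array was left out in 24 of 31 cases (adjusted p up to 0.084), and those of Ces1d and Ces2e in none of them. Ces1f gave -0.88 ± 0.32 (adjusted p = 0.059), or -0.65 ± 0.29 without WSB/EiJ animal 3 (adjusted p = 0.10). It passed without both WSB/EiJ arrays (-0.80 ± 0.26, adjusted p = 0.024, beside 8.43% of all genes). Ces1e gave -0.63 ± 0.26 (adjusted p = 0.099), or -0.38 ± 0.21 without animal 3 (adjusted p = 0.18). Against the coding for necrosis, NZW/LacJ against the mean of the other strains, limma called 0 members with 3.80% of all genes called lower, and 1 member, Ces1d, had an unadjusted p under 0.05 (-0.50 ± 0.22, adjusted p = 0.13). Without animal 3 this Ces1d value was -0.38 ± 0.17 (adjusted p = 0.11). The probe set shared by Ces3a and Ces3b passed both over all arrays, at -1.21 ± 0.23 (adjusted p = 0.00075) and -1.13 ± 0.27 (adjusted p = 0.0045). Both values include WSB/EiJ treated animal 3, with which the WSB/EiJ rise of this probe set was larger. That rise enters both contrasts. Vacuolation has 2 strains on each side, and necrosis has 1 strain against the others. In either contrast a microscopic finding and any other property of those strains cannot be told apart.

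Vehicle levels were compared to see how the strains differed without the drug. WSB/EiJ had the lowest vehicle mean of all 7 members. These are probe set signals, and whether the probes bind the transcripts of each strain alike was not tested. The F test over the 4 strains passed for 6 of 7 members, all but Ces1e (adjusted p = 0.15), when 56.5% of all genes passed. Without WSB/EiJ treated animal 3 all 7 passed, Ces1e with an adjusted p of 0.036, beside 63.0% of all genes, and without both arrays all 7 passed, beside 67.1%. Of the 7, 6 were higher in MA/MyJ than in WSB/EiJ, beside 14.8% of all genes, 4 higher in NZW/LacJ than in WSB/EiJ, beside 16.9%, and 4 higher in SM/J than in WSB/EiJ, beside 15.4%. These 3 comparisons share the WSB/EiJ vehicle animals. Without both WSB/EiJ arrays that stood apart, the counts were 6, 6 and 5 of 7, beside 19.2%, 21.5% and 20.7% of all genes.

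**Figure D3:**
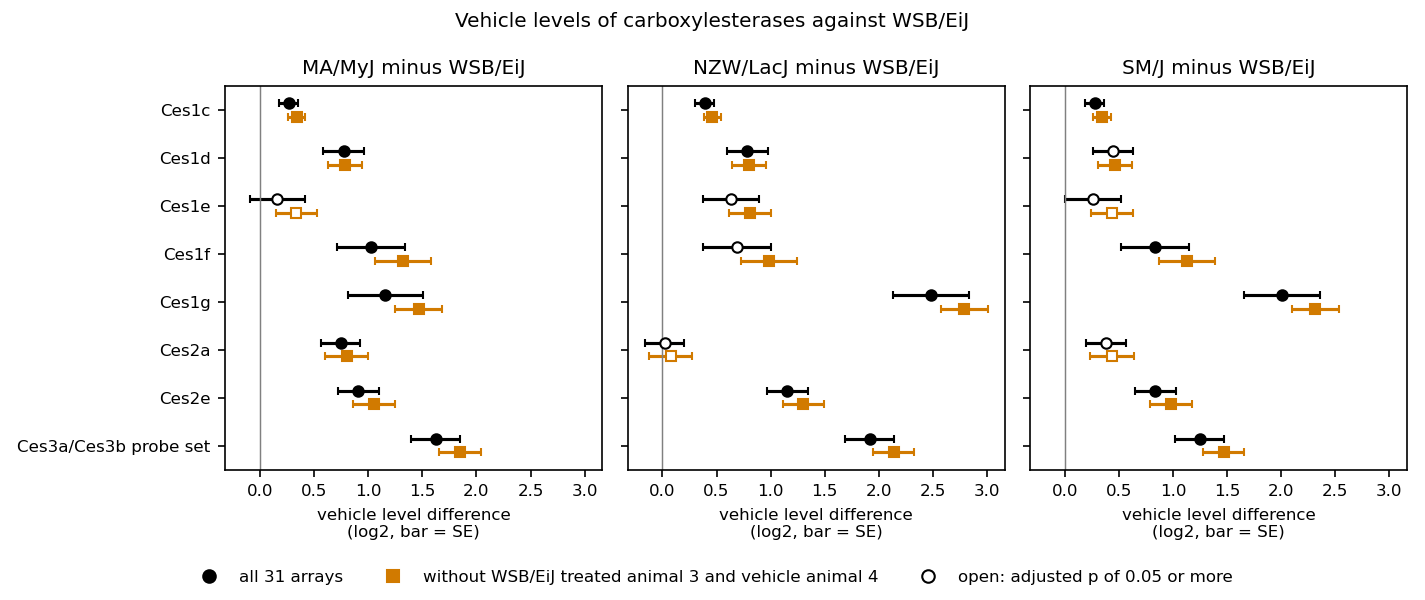
Difference in vehicle level from WSB/EiJ (horizontal axis, log2 with its SE) for 7 carboxylesterases and the probe set shared by Ces3a and Ces3b, with 1 panel for each other strain. Black circles use all 31 arrays, orange squares leave out WSB/EiJ PF-04287881 animal 3 and WSB/EiJ vehicle animal 4, and filled symbols passed. All estimates lie above 0, and the largest is that of Ces1g in NZW/LacJ, at 2.48 over all arrays.

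Ces1g differed most between strains. Its vehicle animals stood at 13.13, 13.01, 13.08 and 13.07 in NZW/LacJ, at 12.08, 12.82, 12.70 and 12.79 in SM/J, at 11.78, 12.14, 11.69 and 11.37 in MA/MyJ and at 10.79, 10.54, 9.52 and 11.51 in WSB/EiJ. The NZW/LacJ animals lay above all others, and the highest WSB/EiJ animal was vehicle animal 4. NZW/LacJ exceeded WSB/EiJ by 2.48 ± 0.35 (5.58-fold, adjusted p = 6.2e-06), SM/J exceeded WSB/EiJ by 2.01 ± 0.35 (4.02-fold, adjusted p = 9.0e-05) and MA/MyJ exceeded WSB/EiJ by 1.16 ± 0.35 (2.23-fold, adjusted p = 0.014). Without both arrays these differences were 2.79 ± 0.22, 2.32 ± 0.22 and 1.47 ± 0.22. The MA/MyJ call was lost without MA/MyJ vehicle animal 2 or WSB/EiJ vehicle animal 3, with an adjusted p of up to 0.086. MA/MyJ minus NZW/LacJ was -1.32 ± 0.35 (adjusted p = 0.0066), the 1 member lower there beside 9.60% of all genes. The neighbours in the order, NZW/LacJ and SM/J (0.47 ± 0.35) and MA/MyJ and SM/J (-0.85 ± 0.35, adjusted p = 0.093), did not pass, although the second did without WSB/EiJ treated animal 3 (adjusted p = 0.014), beside 9.53% of all genes against 7.09% with it.

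The shared probe set of Ces3a and Ces3b had the same strain at the bottom. Its vehicle level in NZW/LacJ exceeded that in WSB/EiJ by 1.92 ± 0.23 (3.77-fold, adjusted p = 8.7e-07). The MA/MyJ level exceeded it by 1.62 ± 0.23 (3.08-fold) and the SM/J level by 1.25 ± 0.23 (2.37-fold). Without both arrays the differences were 2.14 ± 0.19 in NZW/LacJ, 1.85 ± 0.19 in MA/MyJ and 1.47 ± 0.19 in SM/J. Ces2e was lower in WSB/EiJ than in each other strain, NZW/LacJ exceeding it by 1.16 ± 0.19 (2.23-fold, adjusted p = 4.7e-05), MA/MyJ by 0.91 ± 0.19 and SM/J by 0.84 ± 0.19. Without both arrays these were 1.30 ± 0.19, 1.05 ± 0.19 and 0.98 ± 0.19. No pair among the other 3 strains passed for Ces2e.

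Ces2a had another order. Its vehicle mean was 13.26 ± 0.10 in MA/MyJ, 12.90 ± 0.08 in SM/J, 12.54 ± 0.15 in NZW/LacJ and 12.52 ± 0.17 in WSB/EiJ (SD, n = 4 each). MA/MyJ exceeded NZW/LacJ by 0.72 ± 0.18 (adjusted p = 0.0049), beside 14.6% of all genes, and WSB/EiJ by 0.74 ± 0.18 (adjusted p = 0.0032), and the neighbours in the order did not pass. Without both arrays MA/MyJ exceeded WSB/EiJ by 0.80 ± 0.20. After the drug Ces2a stood at 12.36 ± 0.09 in MA/MyJ, 12.17 ± 0.44 in SM/J and 11.67 ± 0.53 in NZW/LacJ (SD, n = 4 each). In treated WSB/EiJ livers it stood at 12.55 ± 0.11 (SD, n = 3), or at 12.58 without animal 3 (n = 2). The treated levels were not compared by a test.

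For Ces1d, MA/MyJ exceeded WSB/EiJ by 0.77 ± 0.19 (adjusted p = 0.0027), NZW/LacJ exceeded it by 0.79 ± 0.19 (adjusted p = 0.0017), and SM/J exceeded it by 0.45 ± 0.19 and passed only without WSB/EiJ treated animal 3 (adjusted p = 0.064 with it, 0.013 without, beside 18.1% of all genes). Without both arrays these differences were 0.79 ± 0.15, 0.80 ± 0.15 and 0.46 ± 0.15. For Ces1f, MA/MyJ exceeded WSB/EiJ by 1.02 ± 0.31 (adjusted p = 0.016) and SM/J exceeded it by 0.83 ± 0.31 (adjusted p = 0.043), but the WSB/EiJ vehicle animals spread from 10.31 to 12.32. NZW/LacJ exceeded WSB/EiJ by 0.69 ± 0.31 for Ces1f and passed only without WSB/EiJ treated animal 3 (adjusted p = 0.086 with it, 0.047 without, beside 19.3% of all genes). Without both arrays the Ces1f differences were 1.32 ± 0.26 in MA/MyJ, 1.13 ± 0.26 in SM/J and 0.98 ± 0.26 in NZW/LacJ. Leaving out WSB/EiJ vehicle animal 3 ended both Ces1f calls made over all arrays, and leaving out WSB/EiJ vehicle animal 2 or SM/J vehicle animal 2, 3 or 4 ended that of SM/J. For Ces1c the differences from WSB/EiJ were 0.27 ± 0.09 in SM/J, 0.39 ± 0.09 in NZW/LacJ and 0.26 ± 0.09 in MA/MyJ, all of which passed, with animals in WSB/EiJ from 13.46 to 14.07. The MA/MyJ and SM/J calls for Ces1c were lost without WSB/EiJ vehicle animal 3, or vehicle animal 2 or 3 of MA/MyJ and of SM/J in turn. Without both arrays the Ces1c differences were 0.35 ± 0.08 in SM/J, 0.46 ± 0.08 in NZW/LacJ and 0.34 ± 0.08 in MA/MyJ. Ces1e was higher in NZW/LacJ than in WSB/EiJ by 0.63 ± 0.26, which passed only without treated animal 3 (adjusted p = 0.051 with it, 0.010 without), and by 0.81 ± 0.19 without both arrays (adjusted p = 0.0012).

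Deviations from the group means, over the 30 arrays other than WSB/EiJ treated animal 3, were positively correlated in 21 of 21 pairs of members. The median Pearson r was 0.57, from 0.12 between Ces1c and Ces2a to 0.86 between Ces1f and Ces1g. In subsets chosen after seeing the data, without both WSB/EiJ arrays the median was 0.57 and the r of Ces1f with Ces1g 0.79 over 29 arrays. Over the 24 arrays of the other 3 strains, 20 of 21 pairs were above 0, the median was 0.51, Ces1f with Ces1g gave 0.64 and Ces1c with Ces2a -0.16. Ces1g, whose mean did not pass under the drug, thus varied within groups with Ces1f, whose mean fell. These arrays share tissue, normalisation and, in part, related probes, so the values are descriptive.

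**Figure D4:**
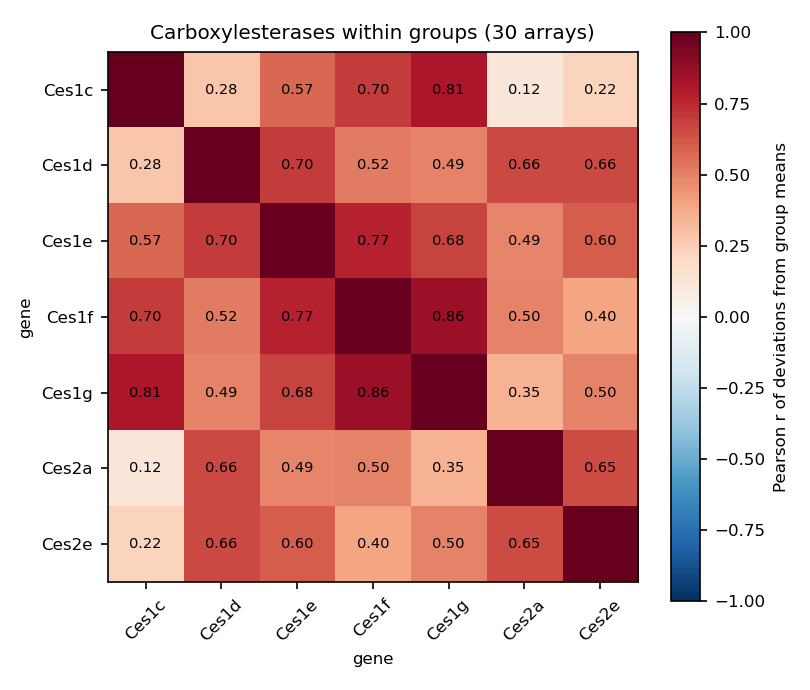
Pearson r of the deviations of 7 carboxylesterases from their group means, for each pair of genes, over 30 arrays without WSB/EiJ PF-04287881 animal 3 (both axes list the genes, and colour and number give r). All 21 pairs lie above 0, from 0.12 to 0.86.

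The gene outside the family with the pattern most like each member, by Pearson r over the same 30 arrays, was in several cases another hepatic enzyme. For Ces1g it was Msra, a methionine sulphoxide reductase, at r = 0.95, and 0.90 for deviations within groups. For Ces1f it was the glucuronosyltransferase-family gene Ugt3a1 (r = 0.84, within groups 0.90), and for Ces1c the glucuronosyltransferase Ugt2b1 (r = 0.86, within groups 0.75). For Ces1d it was the acyl-CoA thioesterase Acot12 (r = 0.86, within groups 0.72) and for Ces2a the monoacylglycerol lipase Abhd6 (r = 0.82, within groups 0.46). For Ces1e it was Abcf1 (r = 0.85) with 0.33 within groups, and for Ces2e it was the carbonic anhydrase Car1 (r = 0.83, within groups 0.71).

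The rest of the family was read from 10 further carboxylesterase genes, of which 5 were tested, Ces1h, Ces2b, Ces2g, Ces4a and Ces5a. In the average over strains Ces2g alone passed among these 5, rising by 0.46 ± 0.14 (adjusted p = 0.015), or by 0.33 ± 0.11 without WSB/EiJ animal 3 (adjusted p = 0.019). It went against the 4 falling members: treated and vehicle means were 8.76 and 7.80 in WSB/EiJ, 9.13 and 8.54 in SM/J, 8.70 and 8.34 in MA/MyJ, and 9.54 and 9.60 in NZW/LacJ. In WSB/EiJ the rise of 0.96 ± 0.29 (adjusted p = 0.021) shrank to 0.44 ± 0.25 without animal 3 and did not pass (adjusted p = 0.19). Its vehicle level resembled that of Ces1g in order, NZW/LacJ exceeding WSB/EiJ by 1.80 ± 0.27 (3.49-fold, adjusted p = 1.2e-05). Ces2b, the neighbour of Ces2a in name and class, gave -0.42 ± 0.21 in MA/MyJ (adjusted p = 0.29) and 0.57 ± 0.23 in WSB/EiJ (adjusted p = 0.080) and did not pass.

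Among 23 tested esterases and lipid hydrolases outside the family, 3 rose and 5 fell in the average over strains, with a median of -0.02. Over all genes 13.3% rose and 8.92% fell in that average, the shares against which this and the following counts are to be read, and 18.4% rose and 14.2% fell without WSB/EiJ animal 3. The mitochondrial and cytosolic acyl-CoA thioesterases Acot2 and Acot1 fell, at -1.22 ± 0.16 (adjusted p = 3.5e-06) and -1.06 ± 0.17 (adjusted p = 6.0e-05), and Abhd6 by -0.52 ± 0.10 (adjusted p = 0.00040). Lpl, the lipase that clears triglyceride from lipoproteins and is abundant in macrophages, rose by 0.61 ± 0.17 (adjusted p = 0.0085), led by 1.82 in MA/MyJ. Its estimate was 0.84 in NZW/LacJ, 0.02 in WSB/EiJ (-0.02 without animal 3) and -0.23 in SM/J. Of 15 tested genes of VLDL assembly, Dgat2 and Cideb rose and Mttp and Mia2 fell. Mttp, which loads lipid onto apolipoprotein B, gave -0.23 ± 0.04 (adjusted p = 4.2e-05), Mia2, an organiser of endoplasmic reticulum exit sites, -0.60 ± 0.10 (adjusted p = 8.5e-05), and Cideb, which acts in the lipidation of VLDL, 0.26 ± 0.05 (adjusted p = 0.0011). By strain Cideb was at 0.78 in NZW/LacJ, 0.43 in MA/MyJ, 0.03 in SM/J and -0.20 in WSB/EiJ (-0.34 without animal 3). Without WSB/EiJ animal 3 the counts were 6 higher and 8 lower among the hydrolases, and 1 higher and 3 lower in VLDL assembly, where Dgat2 no longer passed (adjusted p = 0.051).

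Of 11 tested genes that fold proteins in the endoplasmic reticulum or return them to it, Pdia4 and Hspa5 fell, at -0.39 ± 0.10 and -0.24 ± 0.08, and 5 fell without WSB/EiJ animal 3. By strain Pdia4 was at -0.98 in WSB/EiJ, -0.47 in SM/J, -0.08 in NZW/LacJ and -0.02 in MA/MyJ. Hspa5 was at -0.48 in NZW/LacJ, -0.25 in SM/J, -0.23 in WSB/EiJ and -0.02 in MA/MyJ. Of 18 tested regulators of hepatic metabolism, Srebf1 (0.36 ± 0.13) and Ahr (0.29 ± 0.09) rose and Nr1h3 (-0.10 ± 0.03) fell. Srebf1 did not pass without WSB/EiJ animal 3 (0.33, adjusted p = 0.062), when 3 rose and 3 fell. The estimates did not share 1 sign over the strains: Ahr was at -0.36 in SM/J and -0.13 in NZW/LacJ, Nr1h3 at 0.24 in NZW/LacJ and Srebf1 at -0.13 in MA/MyJ. Of 20 tested targets of the drug-sensing nuclear receptors CAR and PXR, 5 rose and 6 fell, with a median of -0.13, or 6 and 7 without WSB/EiJ animal 3. The organic anion transporter Slco1a4 rose by 0.69 ± 0.10 (adjusted p = 2.5e-05) and the haem synthesis enzyme Alas1 by 0.83 ± 0.20, while Cyp2c29 fell, at -0.56 ± 0.08 (adjusted p = 6.9e-06) and Cyp3a16 by -0.99 ± 0.25. In MA/MyJ the estimate of Cyp3a16 was 0.06.

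Cell markers changed in the same livers. Of 13 tested Kupffer cell markers 10 rose and of 11 tested markers of recruited and lipid-laden macrophages 9 rose in the average over strains, with medians of 0.79 and 1.10, when 13.3% of all genes rose. Without WSB/EiJ animal 3 10 and 9 rose, with medians of 0.77 and 1.25, and the Kupffer marker Slc40a1 fell. The mean level of the second list ran from 8.94 to 10.00 in treated and 7.47 to 7.67 in vehicle MA/MyJ livers, from 8.26 to 9.80 and 7.64 to 7.88 in NZW/LacJ, from 7.91 to 8.20 and 7.31 to 7.55 in SM/J, and from 7.76 to 8.48 and 7.26 to 7.42 in WSB/EiJ. WSB/EiJ treated animal 3 had the lowest of these WSB/EiJ treated values, 7.76. The mean level of the Kupffer list overlapped in NZW/LacJ, with 9.21 to 10.87 in treated and 9.30 to 9.79 in vehicle livers. It also overlapped in SM/J, with 9.34 to 10.16 and 9.34 to 9.77. It stood apart in MA/MyJ (9.37 to 10.28 and 8.82 to 9.12) and in WSB/EiJ (9.20 to 9.60 and 8.01 to 8.60). Of 11 markers of sinusoidal endothelium 8 fell, when 8.92% of all genes fell, while 8 fell and 1, Stab2, rose without animal 3. Of 15 hepatocyte markers 2 rose and 1 fell in the average over strains, by at most 0.14 in size. Single strains gave larger values, such as 0.24 for Hpx in SM/J and 0.19 for Ahsg in MA/MyJ. The mean level of the 15 was 13.75 to 13.77 in treated and 13.72 to 13.80 in vehicle MA/MyJ livers. Markers of cholangiocytes, lymphocytes, adipocytes, pancreas and erythroid cells did not pass in the average, nor did those of intestine over all arrays, and 1 of 8 stellate cell markers, Col3a1, rose. The part of the macrophage signal in the falls was not tested.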

How the data were processed

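Liver RNA of 31 mice was measured on 1-colour Affymetrix arrays, 1 array per animal, after a single round of amplification. The deposited values are log2 intensities that the authors made with RMA in Affymetrix Power Tools, per the submitters' processing notes. Their versions are not given in the sources used here. Of 44721 probe sets, 34728 carried 1 gene symbol in the platform annotation, 872 several and 9121 none. Each gene was read from its probe set with the highest mean. Of 18147 genes, 12890 with a value above 6.49 in at least 3 arrays were tested. A model with 8 groups was fitted in limma 3.58.1 (R 4.3.3) with moderated tests and Benjamini-Hochberg adjustment over all tested genes. The shared probe set of Ces3a and Ces3b was added as 1 more feature after its annotation was seen. Promoters are from RefSeq, GRCm38.p6. On simulated data of 12890 genes with changes added in MA/MyJ, 92 of 100 changes of 1 log2 unit and 67 of 100 of 0.5 were recovered, with 10 false calls. The simulated spread was that of the arrays without WSB/EiJ treated animal 3. The fits over all arrays had a larger spread for some genes, so recovery there can be lower. For Ces1e in MA/MyJ the standard error was 0.26 with that array and 0.19 without it.

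The members and lists were chosen with earlier results of these data known. Named genes were all members and, for each pathway list, up to 4 with the largest average effects past the threshold. The number of arrays limits the precision. Same-numbered animals across groups were checked for pairing (14 pairs, median correlation of deviations -0.047, from -0.22 to 0.23), and the numbers do not pair them. Alternatives were the low-value filter, the choice of probe set, centring, array weights, fits within a strain, a replicate block and leaving out each array.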

Additional observations from a re-analysis of the deposited data

Results flagged for a closer look

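SM/J vehicle animal 1 was far from the other 3 vehicle animals of its strain for 3 members. Its gap to the nearest animal, as a share of the range of the group, was 0.877 for Ces1f (12.01, against 12.32 to 12.36), 0.837 for Ces1g (12.08, against 12.70 to 12.82) and 0.905 for Ces2e (7.96, against 8.65 to 8.72). Of 56 sets of a gene and a group looked at, 3 were marked in this way, and chance marks about 1 in 20.

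The drug effect differed between strains in the moderated F test for Ces1d (adjusted p = 0.0406), Ces2a (adjusted p = 0.0380) and Ces2e (adjusted p = 0.0304), when 19.4% of all genes passed. It also differed for the probe set shared by Ces3a and Ces3b (adjusted p = 0.000818), which rose in WSB/EiJ and fell in NZW/LacJ. Without WSB/EiJ treated animal 3, 2 of the 7 members passed, Ces1d and Ces2a, beside 32.4% of all genes. The calls of the members lay close to the threshold, as given above.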

How the results depend on the processing

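Of the values of single members under the alternatives, 3997 kept their direction and call, 98 lost a call, 86 gained one and 47 changed sign. The cause was not tested. With 31 arrays left out in turn, the number of members called was 3 to 4 in MA/MyJ (4 with all arrays), 3 to 5 in NZW/LacJ (3), 0 to 2 in SM/J (1), 0 to 2 in WSB/EiJ (1), 4 to 4 in the average (4), 0 to 5 in the strain-by-treatment F test (3), 5 to 7 in the vehicle F test (6), 11 to 20 over the vehicle comparisons between strains (16), 2 to 4 for vacuolation (3) and 0 to 1 for necrosis (0). These counts pool rises and falls. In WSB/EiJ the 1 member was Ces2e, higher, with all arrays, and Ces1e, lower, without treated animal 3. Without both WSB/EiJ arrays, SM/J gave 2 and WSB/EiJ 2, Ces2e higher and Ces1e lower. The counts over all genes in these fits are given further below. The mean of probe sets and the most variable probe set gave 1 for necrosis. Array weights gave 5 in NZW/LacJ, 5 in SM/J, 2 in WSB/EiJ and 26 between vehicle strains. Fits within a strain gave 0 in WSB/EiJ, 2 in SM/J and 5 in NZW/LacJ. The replicate block left the counts at 4, 3, 1 and 1 in the strains, 4 in the average and 3 in the F test, and same-numbered animals share only a number.

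Signs turned only for values that did not pass with all arrays. Ces1d in WSB/EiJ was -0.30 without both arrays and -0.45 with weights, and in SM/J 0.0037 by the mean of probe sets and 0.071 by the most variable. With each array centred, Ces1c MA/MyJ minus SM/J was 0.022, Ces1d MA/MyJ minus NZW/LacJ 0.027 and Ces2a NZW/LacJ minus WSB/EiJ -0.024. With weights, Ces1d MA/MyJ minus NZW/LacJ was 0.051, Ces1g in SM/J -0.040, Ces2a in WSB/EiJ -0.030, Ces2a NZW/LacJ minus WSB/EiJ -0.021 and the Ces2e average -0.022. Ces1f for necrosis was -0.018 with the replicate block. With 1 array left out, WSB/EiJ ran from -0.32 to 0.37 for Ces1d, -0.79 to 0.030 for Ces1e, -0.57 to 0.19 for Ces1f and -0.041 to 0.085 for Ces2a. SM/J ran from -0.13 to 0.12 for Ces1g and -0.060 to 0.22 for Ces2e. Ces1f for necrosis ran from -0.12 to 0.16. Vehicle differences ran from -0.048 to 0.012 for Ces1c MA/MyJ minus SM/J, -0.073 to 0.034 for Ces1d MA/MyJ minus NZW/LacJ, -0.11 to 0.14 for Ces2e MA/MyJ minus SM/J and -0.051 to 0.094 for Ces2a NZW/LacJ minus WSB/EiJ.

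Over all genes, array weights raised the calls to 2607 in MA/MyJ (534 without), 4418 in NZW/LacJ (2766), 2765 in SM/J (334), 4209 in WSB/EiJ (2488), 5280 in the average (2859), 5859 in the F test (2498), 31713 between vehicle strains (20804), 4432 for vacuolation (2194) and 3634 for necrosis (1947). Without both WSB/EiJ arrays they were 1180, 759 and 3993 in MA/MyJ, SM/J and WSB/EiJ, 4306 in the average, 4275 in the F test, 3464 for vacuolation and 2980 for necrosis. Fits within a strain gave 1063 in MA/MyJ and 4 in WSB/EiJ. With 1 array left out they ran from 279 to 941 in MA/MyJ, 2052 to 3436 in NZW/LacJ, 103 to 600 in SM/J and 1282 to 4180 in WSB/EiJ. The average ran from 2527 to 4209, the F test from 2115 to 4180 and the vehicle F test from 6559 to 8124. Vehicle comparisons between strains ran from 18308 to 25057, vacuolation from 1824 to 3390 and necrosis from 1463 to 2804.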
